A study of Rattus norvegicus with 8 samples.

Results

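Levels of the mRNAs of 10 glycolytic enzymes were compared between the somata and the processes of rat hippocampal neuron cultures, with and without PTX. The genes were Hk1, Hk2, Pfkp, Aldoa, Tpi1, Pgk1, Pgam1, Eno1, Pkm and Ldha, taken by symbol from a table of 28909 gene symbols by a rule that names them as enzymes and applies no cutoff on measured values. All 10 were among the 14309 genes that passed the filter on low counts and were tested. The 10 enzymes and all gene lists were chosen with earlier results of these data known. The cells were primary hippocampal neurons of embryonic Sprague-Dawley rats, plated on porous filter inserts. RNA of the upper side is called somata, and RNA of the lower side, which neurites and glial processes can reach through the pores, is called processes. Cultures received 100 μM Picrotoxin (PTX), a blocker of GABA-A receptors that raises network activity, or the vehicle (control) for 48 h, from day 18 to day 20 in vitro. Ribosome-depleted total RNA was sequenced from 2 libraries for each of the 4 conditions: somata control, somata PTX, processes control and processes PTX. The labels do not say whether the 2 libraries of a condition came from separate cultures, so the p-values measure only the spread between these libraries, which may be technical.

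Glycolysis turns glucose into pyruvate in the cytosol and yields ATP and NADH. Hexokinases trap glucose as glucose 6-phosphate, phosphofructokinase makes the committed step, aldolase splits the sugar, and the later enzymes recover the ATP. Lactate dehydrogenase converts pyruvate to lactate and regenerates NAD+. In brain, neurons and astrocytes both express the pathway, but with different isoforms and at different rates, and neuronal firing raises the demand for ATP.

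The libraries held 12290890 to 18455662 counts, but the mitochondrial genome took 70.7% ± 2.55 (SD, n = 2) of the counts of processes control libraries against 25.5% ± 1.67 (SD, n = 2) in somata control. Genes outside the mitochondrial genome shared 9517542 to 11227599 counts per library in somata and 4702054 to 5491237 in processes. Levels below are CPM, counts per 1000000 of the library size after scaling by edgeR's TMM factors. All 10 neuron markers were detected in both compartments, with a summed level of 2080 to 2369 CPM in somata control and 5431 to 5852 CPM in processes control. Map2, whose mRNA is known in dendrites, made up most of that sum in processes. In control cultures 3 of the 10 were called higher in processes and 3 lower, where 25.8% and 21.9% of all tested genes were. All 10 astrocyte markers were detected too, and their sum was 4922 to 5501 CPM in somata control and 15582 to 16804 CPM in processes control, so the process samples were not neuronal RNA alone. None of the 9 microglia markers in the table passed the filter, and their sum did not exceed 3.38 CPM in any library. In such bulk samples, fewer cells of a type and less RNA per cell cannot be told apart.

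Promoter windows of RefSeq (rat assembly GRCr8, from 250 bases before to 50 bases after an annotated start) were given for 9 of the 10 genes, in 13 windows. Pgk1 had no entry. They are shown because many glycolytic genes are known targets of the hypoxia-inducible factors, whose binding element has the core ACGTG or GCGTG. Either core, on either strand, was found in 6 of these 9 genes, against 44.6% of 27457 genes with a window. The following stretches of 30 bases, written 5′ to 3′ on the strand of the gene, begin 8 bases before the most upstream core of a window (for Hk1, at the window's edge) and mark each core in capitals, ACGTG or GCGTG when read forward and CACGT or CACGC when on the reverse strand.
Hk1 (chr20:30842293-30842322, minus strand): gggggACGTGcagggtgctgcctcctttcc
Pfkp (chr17:68639762-68639791, plus strand): cgggcgagGCGTGggcggctcctgcgggtg
Aldoa (chr1:190836948-190836977, minus strand): gctcgagtCACGTcctagcggggcggagga
Pgam1 (chr1:250673003-250673032, plus strand): aattgcttACGTGcgctccgtgactgccgg
Eno1 (chr5:166003235-166003264, plus strand): gccttggtCACGCtcttctcgtggagtgac
Ldha (chr1:106507997-106508026, plus strand): ccagcctaCACGTGggttcccgCACGTccg
The Ldha stretch, 95 to 66 bases upstream of the start, holds the palindrome CACGTG, which is an E-box and contains ACGTG on both strands, and a further ACGTG on the reverse strand 73 bases upstream. CACGTG was found in 1 of the 13 windows, against 6.42% of all 33469 windows. No core was found in the windows of Hk2, Tpi1 and Pkm. The GC box GGGCGG was found in 8 of the 9 genes, Hk2 being without it, against 36% of all genes, and the TATA box TATAAA in none of the 9, against 15.3% of all genes. In the Pfkp stretch the GC box shares its first G with the core. These matches describe letters in a window and are not binding data.

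Summed, the levels of these 10 mRNAs were higher with PTX in both compartments. The sum leaves out the other glycolytic genes, which are given below. In somata the sum was 1939 and 1819.8 CPM in control and 2495 and 2279.7 CPM with PTX, and in processes it was 1821 and 1570.3 CPM in control and 2448 and 2075 CPM with PTX. The PTX libraries lay above the control libraries in each compartment, without overlap. The somata and process libraries overlapped in control and in PTX cultures. As a share of all counts outside the mitochondrial genome, which uses no scaling between libraries, the 10 genes took 0.462% ± 0.0225 (SD, n = 2) in somata control, 0.592% ± 0.037 in somata PTX, 0.303% ± 0.0266 in processes control and 0.409% ± 0.0471 in processes PTX.

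**Figure D1:**
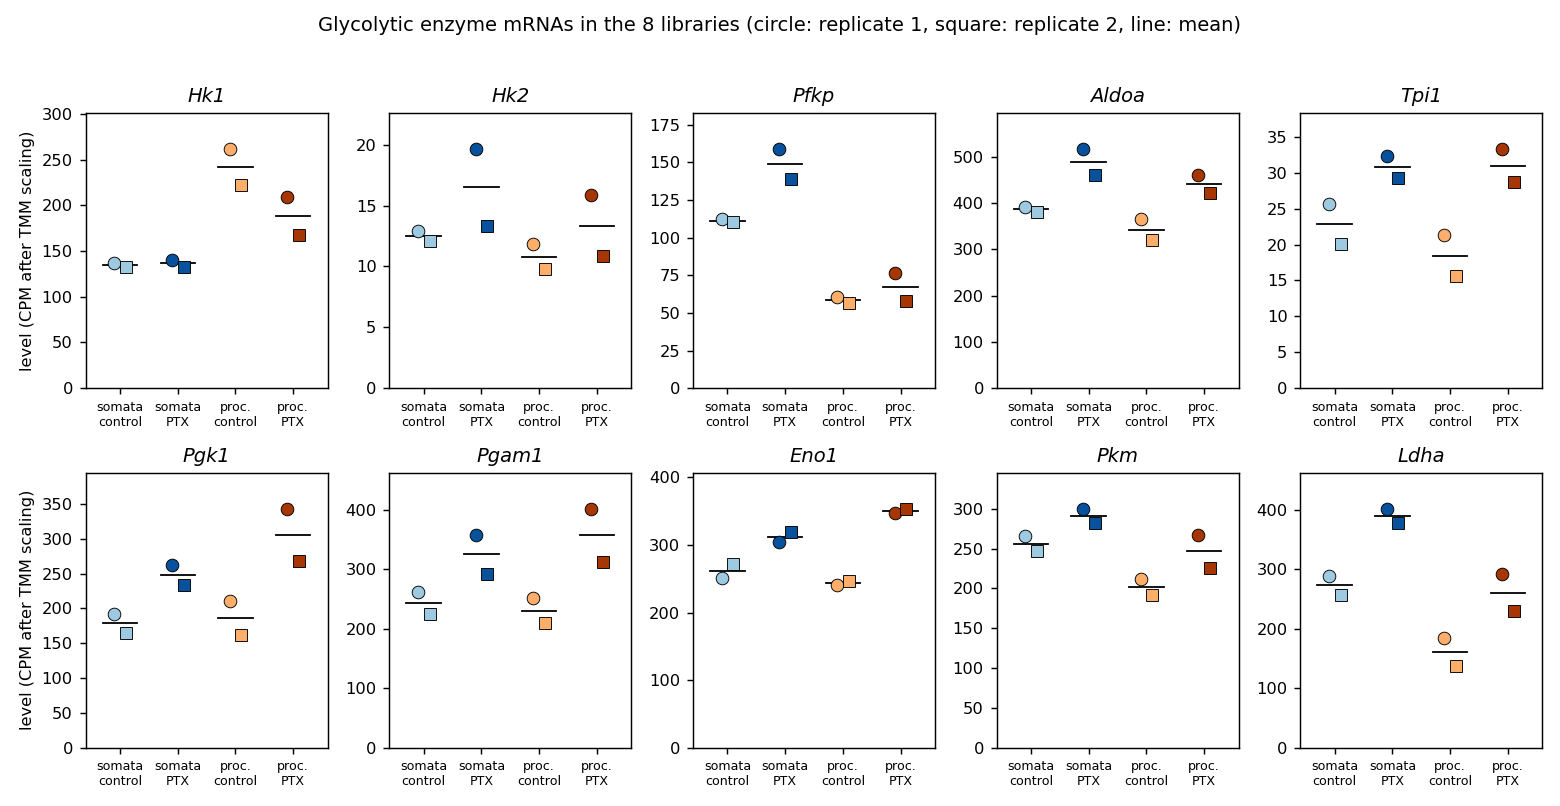
Level of each of the 10 mRNAs (y axis, CPM after TMM scaling, from 0) in somata control, somata PTX, processes control and processes PTX (x axis); circles are replicate 1, squares replicate 2 and lines the mean of the 2. In somata, 9 of the 10 genes had both PTX libraries above both control libraries; Hk1 stood apart, highest in processes control at 261 and 223 CPM.

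The next comparison asked which enzymes change in processes under PTX. Here 4 of the 10 mRNAs rose: Tpi1, Pgk1, Eno1 and Ldha, and none fell. Pgam1, Aldoa, Pkm, Hk2 and Pfkp had positive log2 fold changes that were not called, and Hk1, the ubiquitous hexokinase that binds mitochondria, had a negative value that was not called either. A call means an adjusted p under 0.05 by edgeR's quasi-likelihood test with Benjamini-Hochberg adjustment over all 14309 genes. By this rule 1.64% of all tested genes were called higher and 2.1% lower with PTX in processes. The median log2 fold change of the 10 genes was 0.44, and that of all tested genes was −0.01.

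Tpi1 encodes triosephosphate isomerase, which interconverts the products of aldolase. Its level in processes was 21.3 and 15.6 CPM in control and 33.3 and 28.7 CPM with PTX, a log2 fold change of 0.74 ± 0.18 (SE; adjusted p = 0.0476). Tpi1 had few reads, 133 to 900 per library. Pgk1 encodes phosphoglycerate kinase, the first ATP-yielding step. Its level was 211 and 162 CPM in control and 343 and 268 CPM with PTX (0.71 ± 0.17, adjusted p = 0.0409). Both PTX libraries lay above both control libraries for these genes. Pgam1, the phosphoglycerate mutase between Pgk1 and Eno1 in the pathway, was at 252 and 209 CPM in control and 402 and 313 CPM with PTX, and its change of 0.63 ± 0.16 was just outside the threshold (adjusted p = 0.0636). The likelihood ratio test and DESeq2, which called 5 of the 10 in processes, both called Pgam1 (adjusted p = 0.011 and 0.00414). Of all 14309 tested genes, the likelihood ratio test called 424 higher and 525 lower in processes, and DESeq2 310 higher and 345 lower. Eno1 encodes the non-neuronal enolase. It was at 241 and 246 CPM in control and 347 and 354 CPM with PTX (0.52 ± 0.11, adjusted p = 0.0262), with the closest pairs of libraries among the 10 genes. Ldha, the lactate dehydrogenase subunit that favours the formation of lactate, was at 184 and 138 CPM in control and 293 and 229 CPM with PTX (0.70 ± 0.16, adjusted p = 0.0424). Its groups did not overlap.

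The remaining 5 genes were not called. Aldoa, the main aldolase of most tissues, was at 365 and 319 CPM in control and 460.3 and 421 CPM with PTX (0.36 ± 0.12, adjusted p = 0.154). Pkm, pyruvate kinase, was at 212 and 191 CPM in control and 268 and 226 CPM with PTX (0.29 ± 0.12, adjusted p = 0.269). These groups did not overlap, whereas those of Hk2 and Pfkp did. Hk2, the insulin-responsive and inducible hexokinase, was at 11.8 and 9.75 CPM in control and 15.8 and 10.9 CPM with PTX, and Pfkp, the platelet-type phosphofructokinase, at 60.8 and 56.4 CPM and 76.5 and 58.2 CPM. In contrast, Hk1 was at 261 and 223 CPM in control and 209 and 167 CPM with PTX (−0.36 ± 0.13, adjusted p = 0.193), and both PTX libraries lay below both control libraries. In all, 7 of the 10 genes had PTX libraries above the control libraries without overlap, which held for 20.1% of all tested genes, and 1 below, which held for 22.3%.

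**Figure D2:**
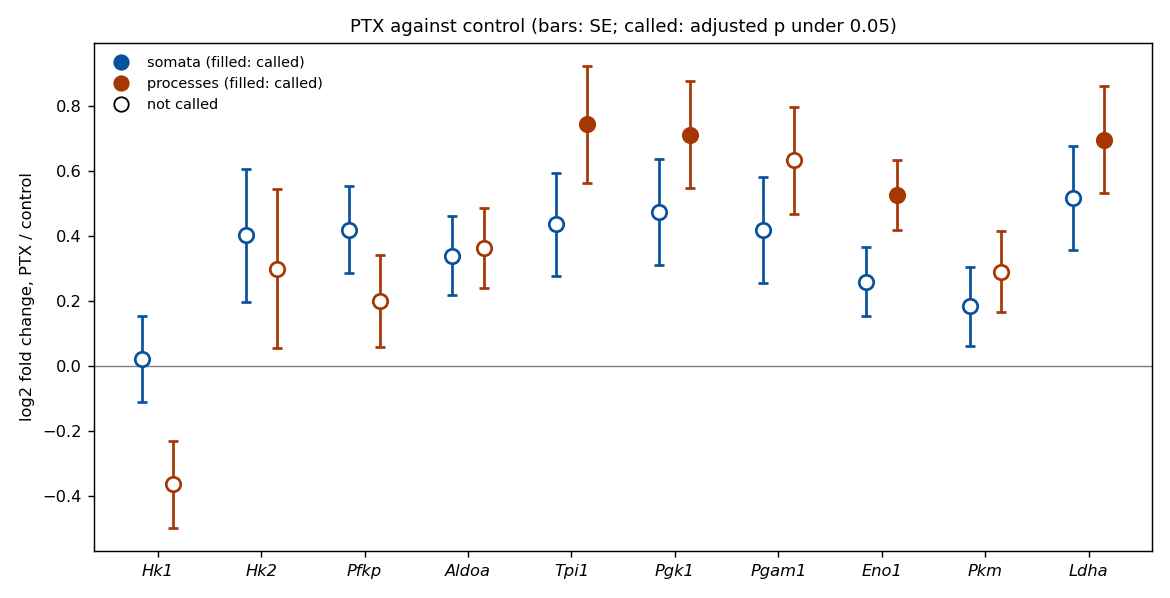
Log2 fold change of PTX against control (y axis) for the 10 mRNAs (x axis, in pathway order) in somata (blue) and processes (brown); bars are SE, filled points have an adjusted p under 0.05. Filled points are Tpi1, Pgk1, Eno1 and Ldha in processes, between 0.52 and 0.74; Hk1 in processes is the lowest at −0.36.

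These calls were close to the threshold. When each of the 8 libraries was left out in turn, 0 to 2 of the 4 calls were left. Eno1 lost its call without any 1 of the 4 process libraries (highest adjusted p = 0.129), Pgk1 also without either somata control library (highest 0.226), Tpi1 without any 1 of the process or either somata PTX library (highest 0.218), and Ldha without any 1 of the 8 (0.0504 to 0.234). The log2 fold changes of these 4 genes stayed between 0.50 and 0.99. With the replicate number as a block, a fit used because libraries of the same number deviated together, 7 of the 10 genes were called higher, among them Pgam1 (adjusted p = 4.38e-05), Aldoa (0.011) and Pkm (0.0455), and Hk1 was called lower (0.0126). In that fit 5.1% of all tested genes were called higher and 6.09% lower.

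In somata, the PTX values of the 10 genes pointed the same way, but none was called by the quasi-likelihood test, where 2.09% of all tested genes were called higher and 1.5% lower. At an unadjusted p under 0.05 there were 7 of the 10, and 2229 of all 14309 tested genes. The likelihood ratio test called 0 of the 10, where it called 541 of all tested genes higher and 431 lower. DESeq2 called 1 of the 10, Ldha, where it called 289 of all tested genes higher and 214 lower. All 10 log2 fold changes were positive, with a median of 0.41 against −0.01 over all tested genes. In 9 of the 10 genes both PTX libraries lay above both control libraries, which held for 24% of all tested genes, and in none below, which held for 25%. With the replicate block 7 of the 10 were called higher, namely Hk2, Pfkp, Aldoa, Tpi1, Pgk1, Pgam1 and Ldha, and 7.21% of all tested genes were called higher and 6.79% lower.

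Ldha had the highest log2 fold change in somata, with 289 and 256 CPM in control and 402 and 378 CPM with PTX (0.52 ± 0.16, adjusted p = 0.122, 4.73e-04 with the replicate block). Pgk1 followed with 192 and 165 CPM against 263 and 233 CPM (0.47 ± 0.16, adjusted p = 0.172, 7.49e-04 with the block). Tpi1 was at 25.6 and 20.1 CPM in control and at 32.4 and 29.3 CPM with PTX. These genes, which act after aldolase, were also among those called in processes. Pfkp was at 112 and 110.1 CPM in control and 159 and 139 CPM with PTX (0.42 ± 0.13, adjusted p = 0.13, 0.00269 with the block). Pgam1 was at 262 and 225 CPM against 359 and 292 CPM, and Aldoa at 391 and 381 CPM against 516 and 461 CPM. For each of these genes the lower PTX library still exceeded the higher control library. Eno1 was at 251 and 271 CPM in control and 305 and 319.8 CPM with PTX, and Pkm at 266 and 246 CPM and 300.05 and 282 CPM, neither called in the blocked fit (adjusted p = 0.0539 and 0.198). Hk2 was at 12.9 and 12.1 CPM in control and 19.6 and 13.3 CPM with PTX, so that most of its difference came from 1 PTX library. Hk1 was at 136 and 132 CPM in control and 140.3 and 133 CPM with PTX (0.02 ± 0.13, adjusted p = 0.967).

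Whether the PTX effect differed between the compartments was tested directly by the interaction, the log2 fold change in processes minus that in somata. None of the 10 genes was called, and of all 14309 tested genes 0% were called by the quasi-likelihood test (572 had an unadjusted p under 0.05, and the likelihood ratio test and DESeq2 called 4 each). None of the 10 had an unadjusted p under 0.05 in the quasi-likelihood test. With the replicate block 11 of all tested genes were called higher and 4 lower. None of the 10 was among them, and Hk1 had their lowest adjusted p in that fit (0.373). The largest difference in size was that of Hk1, −0.39 with a 95% interval of −0.80 to 0.03. Eno1 had 0.27 (−0.07 to 0.60), Tpi1 0.31 (−0.22 to 0.84) and Ldha 0.18 (−0.32 to 0.68). These values and intervals come from the fit without the block. With intervals of this width, differences of up to about the size of the PTX effects themselves were not detectable in that fit. Calls in processes without calls in somata do not show that the compartments differed.

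Levels of cell type markers were also compared between PTX and control in the same libraries. The summed level of the 10 neuron markers was 5431 to 5852 CPM in processes control and 4135 to 4874 CPM in processes PTX, and 2080 to 2369 CPM and 1874 to 2069 CPM in the somata. The sum in processes was mostly Map2, which was not called (−0.34, adjusted p = 0.24). Of these markers 1 of 10 was called lower in each compartment, Syn1 in processes and Rbfox3 in somata. Of all tested genes, 2.1% were called lower in processes and 1.5% in somata. Of the markers of dividing cells, 4 of 10 were called higher in processes (Top2a, Ccnb1, Cdk1 and Pcna), where 1.64% of all tested genes were. The sum of the 10 was 180 to 217 CPM in control and 324 to 353 CPM with PTX. In somata 1 of 10, Cdk1, was called higher, where 2.09% of all tested genes were. The sum there was 135 to 160.04 CPM in control and 170 to 239 CPM with PTX. The astrocyte sum was 15582 to 16804 CPM in processes control and 12842 to 14728 CPM in processes PTX. In somata it was 4922 to 5501 CPM in control and 3832 to 5120 CPM with PTX, which overlapped. In processes 0 of 10 astrocyte markers were called, and in somata 1, Gja1, was called lower. Gfap, which made up most of the sum in processes, had −0.31 there and Slc1a3 had 0.40 (adjusted p = 0.458 and 0.225). For the vascular and fibroblast list 5 of 9 markers were tested and Kdr was called higher in somata. The part of these cells in the change of the glycolytic mRNAs was not tested.

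Between the compartments, the 10 enzymes did not share a direction. In control cultures, Hk1 was higher in processes, and Pfkp, Ldha and Pkm were lower. The other 6 were not called. All told, 1 of 10 was called higher, where 25.8% of all tested genes were, and 3 of 10 lower, where 21.9% were. The median log2 fold change, processes against somata, was −0.19 for the 10 genes and −0.05 for all tested genes. These values are relative to TMM scaling, and scaling by library size alone, under which the median of all genes moved to −1.86, gave negative values for all 10 genes, Hk1 included (−0.96). The calls over all genes, 3688 higher and 3135 lower with TMM, became 2750 and 4704 under upper quartile scaling and 191 and 13271 under library size scaling. In PTX cultures 3680 and 3441 became 2904 and 4768, and 181 and 13318.

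Hk1 was at 136 and 132 CPM in somata control and 261 and 223 CPM in processes control, a log2 fold change of 0.85 ± 0.13 (adjusted p = 4.37e-04), and it kept its call without any 1 of the 8 libraries. Hk2, the other hexokinase, was at 12.9 and 12.1 CPM in somata and 11.8 and 9.75 CPM in processes (−0.21 ± 0.23, adjusted p = 0.47). Pfkp was at 112 and 110.1 CPM in somata and 60.8 and 56.4 CPM in processes (−0.93 ± 0.14, adjusted p = 3.21e-04). With TMM scaling, Hk1 and Pfkp thus differed between the compartments beyond the spread between libraries, in opposite directions. Ldha was at 289 and 256 CPM in somata and 184 and 138 CPM in processes (−0.76 ± 0.16, adjusted p = 0.00307). Pkm was at 266 and 246 CPM in somata and 212 and 191 CPM in processes (−0.35 ± 0.12, adjusted p = 0.0391), but was called in 3 of the 8 fits that left out a library. It lost its call without either somata control library, either somata PTX library or processes control replicate 2 (highest adjusted p = 0.189). Pfkp and Ldha kept theirs in all 8. The log2 fold changes of Aldoa (−0.17), Eno1 (−0.10), Pgam1 (−0.08) and Pgk1 (0.06) lay near that of the median gene. Tpi1 (−0.30 ± 0.17, adjusted p = 0.173) was called lower in processes with the replicate block (0.0316), where 29.8% of all tested genes were called higher and 28% lower.

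In PTX cultures the same 3 enzymes led. Hk1 was at 140.3 and 133 CPM in somata and 209 and 167 CPM in processes (0.46 ± 0.13, adjusted p = 0.0141), Pfkp at 159 and 139 CPM and 76.5 and 58.2 CPM (−1.14 ± 0.14, adjusted p = 6.52e-05), and Ldha at 402 and 378 CPM and 293 and 229 CPM (−0.58 ± 0.16, adjusted p = 0.0119). None of these groups overlapped. So 1 of 10 was called higher, against 25.7% of all tested genes, and 2 of 10 lower, against 24%. Hk1 lost its call without processes PTX replicate 1 (0.29, adjusted p = 0.124) or somata PTX replicate 2 (0.43, 0.0729) and under upper quartile scaling (0.29, 0.0876), and it was negative under library size scaling (−1.37). Ldha lost its call without somata PTX replicate 1 (−0.53, 0.0603) or processes PTX replicate 2 (−0.41, 0.105). With the replicate block Pgk1 was also called higher in processes (0.0086) and Pkm lower (0.0247), where 30% of all tested genes were called higher and 29.6% lower. The compartment contrasts share libraries with the PTX contrasts and are not independent of them. The astrocyte marker sum was also higher in processes in each treatment, but its markers did not share a direction. Gfap, the filament protein of astrocytes, made up most of it, with a mean of 10247 CPM in processes control and 1685 CPM in somata control. In control cultures 5 of the 10 markers were called higher in processes and 2 lower, Slc1a3 (−0.56, adjusted p = 0.0143) and Gja1 (−0.38, 0.0268), and in PTX cultures 6 were called higher and 0 lower. The part of astrocytes in these differences was not tested.

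**Figure D3:**
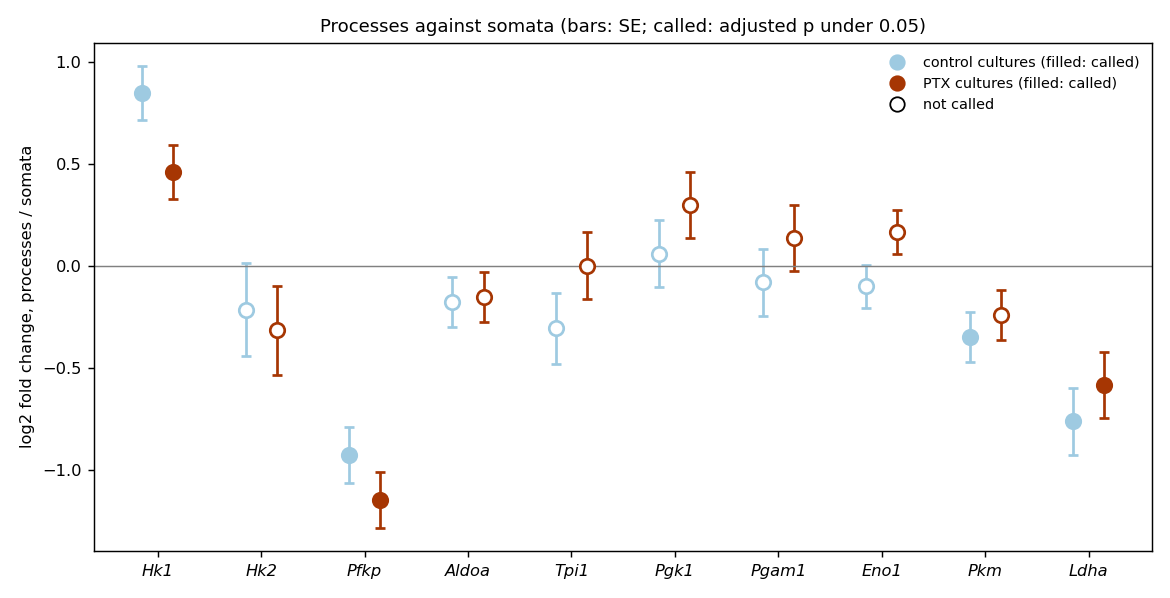
Log2 fold change of processes against somata (y axis) for the 10 mRNAs (x axis, in pathway order) in control (light blue) and PTX cultures (brown); bars are SE, filled points have an adjusted p under 0.05. Hk1 is the highest in both, at 0.85 and 0.46, and Pfkp the lowest, at −0.93 and −1.14.

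A measure within each library, the share of the 10 genes' counts that fell on each gene, needs no scaling between libraries. Hk1 took 7.03% and 7.26% of these counts in somata control, 5.62% and 5.81% in somata PTX, 14.4% and 14.2% in processes control and 8.55% and 8.06% in processes PTX. None of these pairs overlapped, and replicates lay closer to each other than conditions did. Ldha took 14.9% and 14.1% in somata control, 16.1% and 16.6% in somata PTX, 10.1% and 8.79% in processes control and 12% and 11% in processes PTX. Pfkp took 5.8% and 6.05% in somata control and 3.34% and 3.59% in processes control. The share of Hk1 was thus lower with PTX in each compartment and that of Ldha higher, without overlap. The shares of Aldoa hardly moved, between 18.8% and 21% in all 8 libraries. Shares of a sum depend on each other, and they were not tested.

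**Figure D4:**
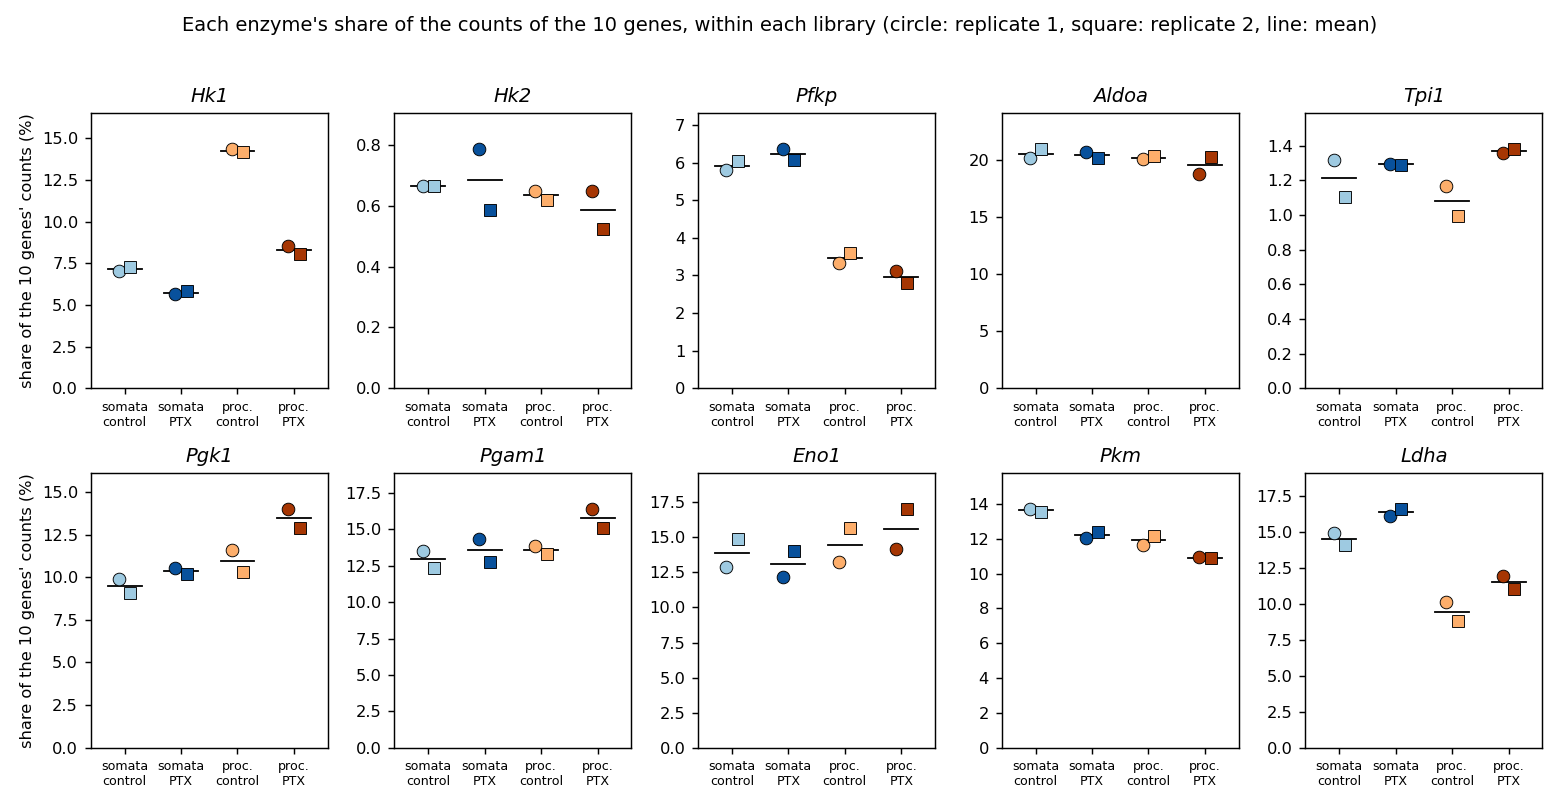
Share of the counts of the 10 genes taken by each gene (y axis, percent, from 0) within each of the 8 libraries, grouped by condition (x axis); circles are replicate 1, squares replicate 2 and lines the mean of the 2. Hk1 is at 14.4% and 14.2% in processes control and at 8.55% and 8.06% in processes PTX, while Aldoa stays between 18.8% and 21%.

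The log2 CPM of the 10 genes were correlated in pairs across the 8 libraries. Of the 45 pairs of genes, 37 had a positive Pearson correlation, and all 36 pairs without Hk1 were positive. The share of positive pairs among all tested genes was not computed, so these counts have no background beside them. The highest was Pkm with Ldha (r = 0.99) and the lowest Hk1 with Pfkp (r = −0.82). Without Hk1 the lowest was Pfkp with Pgk1 (r = 0.05). With the mean of the 10 centred profiles, Hk1 correlated at −0.41. The points are libraries of 4 conditions that share the scaling and the replicate numbers, so these values describe the data and carry no test. Among 10198 other genes that averaged 5 CPM or more, the 5 whose profile was most like that mean were AC094212.1 (r = 0.99), RGD1563601 (0.99), Elmo1 (0.98), Tspan9 (0.98) and Avpi1 (0.98). In each condition, replicate 2 lay below replicate 1 for 9 of the 10 genes, the exception being Eno1.

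The other glycolytic genes, isoforms of the same families and the separate enzymes Gpi and Gapdh, gave different pictures. Aldoc, the aldolase of astrocytes, was higher in processes than in somata of control cultures (log2 fold change 0.64, adjusted p = 9.98e-04), as were Ldhb, the subunit that favours the use of lactate (0.55, 0.00173), Bpgm, which makes 2,3-bisphosphoglycerate (0.87, 1.65e-04), and Pgam2, the muscle-type mutase (1.58, 2.31e-04). Gpi, which isomerises glucose 6-phosphate, was lower (−0.43, 0.0222), but lost its call without somata control replicate 1 (−0.32, 0.162) or processes control replicate 2 (−0.31, 0.139). Eno2, the neuronal enolase, had −0.58 (0.121), Pfkm 0.27 (0.0664), Pfkl −0.34 (0.0872) and Eno3 −0.16 (0.754). Under library size scaling Aldoc (−1.17), Ldhb (−1.25), Pfkm (−1.54), Bpgm (−0.93) and Pgam2 (−0.25) turned negative. With the replicate block Eno2 (adjusted p = 0.00181) and Pfkl (0.00448) were called lower and Pfkm higher (0.0146). In all, 4 of the 11 tested genes of this list were called higher and 1 lower in control cultures, where 25.8% and 21.9% of all tested genes were. In PTX cultures Pfkm was called higher (0.32, 0.0361) and Eno2 lower (−0.87, 0.0278), beside Aldoc (0.60, 0.0014), Ldhb (0.42, 0.00785), Bpgm (0.68, 7.79e-04) and Pgam2 (0.89, 0.00841). Pfkm lost this call under upper quartile scaling (0.14, 0.311) and without somata control replicate 1, either somata PTX library or processes PTX replicate 1 (highest adjusted p = 0.177). Ldhb lost it under upper quartile scaling (0.24, 0.0823) and without somata PTX replicate 1 (0.35, 0.0864) or processes PTX replicate 2 (0.36, 0.0531). Eno2 lost it without somata PTX replicate 1 (−0.53, 0.193) or processes PTX replicate 2 (−0.44, 0.237), and its value ranged from −1.43 to −0.44 over the omissions. Pgam2 lost it without processes PTX replicate 1 (0.79, 0.052). With PTX in processes, Gapdh, the dehydrogenase between Tpi1 and Pgk1 in the pathway, rose from a mean of 130 CPM to 177 CPM (0.45 ± 0.10, adjusted p = 0.0398), and it was the only 1 of the 11 called. In somata none of the 11 was called, and Gapdh had 0.21 (0.368). The median log2 fold change of the 11 with PTX was −0.08 in processes and 0.10 in somata, against 0.44 and 0.41 for the 10 enzymes. Both groups of genes were chosen with earlier results of these data known, and this difference was not tested. The values of Aldoc (−0.08), Ldhb (−0.08), Pfkm (−0.09), Eno2 (−0.04), Eno3 (−0.37), Pfkl (0.31) and Pgam2 (−0.54) with PTX in processes were not called. Gapdh lost its call when any 1 of the 8 libraries was left out.

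Around glycolysis, 5 of the 89 tested genes of the 7 related lists (5.62%) were called higher with PTX in processes and 1 (1.12%) lower, where 1.64% and 2.1% of all tested genes were. Among the 13 tested genes of glucose and lactate transport, 1 was called higher and none lower. This was Slc2a1, the glucose transporter GLUT1, which rose from 25.8 ± 3.83 CPM (SD, n = 2) to 50.9 ± 14 CPM (0.97 ± 0.19, adjusted p = 0.0217), and was at 66.6 ± 3.54 CPM and 108 ± 14.8 CPM in somata (0.70 ± 0.17, adjusted p = 0.0511, 6.50e-05 with the block). Among the 15 tested regulators 2 were called higher. Egln1, an oxygen-sensing prolyl hydroxylase, rose from 26.9 to 43.2 CPM (0.68 ± 0.15, adjusted p = 0.0298), and Vhl, which marks hydroxylated hypoxia-inducible factors for degradation, from 127 to 175 CPM (0.46 ± 0.11, adjusted p = 0.0439). Of the 13 genes around pyruvate dehydrogenase, the 15 of the citric acid cycle and the 7 of the pentose phosphate pathway, none was called in either compartment with PTX. Of the 15 tested genes of glycogen metabolism, Ppp1r3c, a subunit that directs a phosphatase to glycogen, rose in processes (0.61 ± 0.14, adjusted p = 0.0345). Pygm, the muscle-type glycogen phosphorylase, fell in processes (−1.49 ± 0.31, adjusted p = 0.0276) and in somata (−1.17 ± 0.27, adjusted p = 0.0422). Slc2a1 lost its call without processes PTX replicate 1 or either processes control library, Egln1 without any 1 process library, and Vhl without any 1 of the 8. Ppp1r3c lost it without either control library of a compartment or processes PTX replicate 1, and Pygm in processes without processes control replicate 1 or either processes PTX library. In somata Pygm lost it without either somata control library, either processes control library or somata PTX replicate 2.

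**Figure D5:**
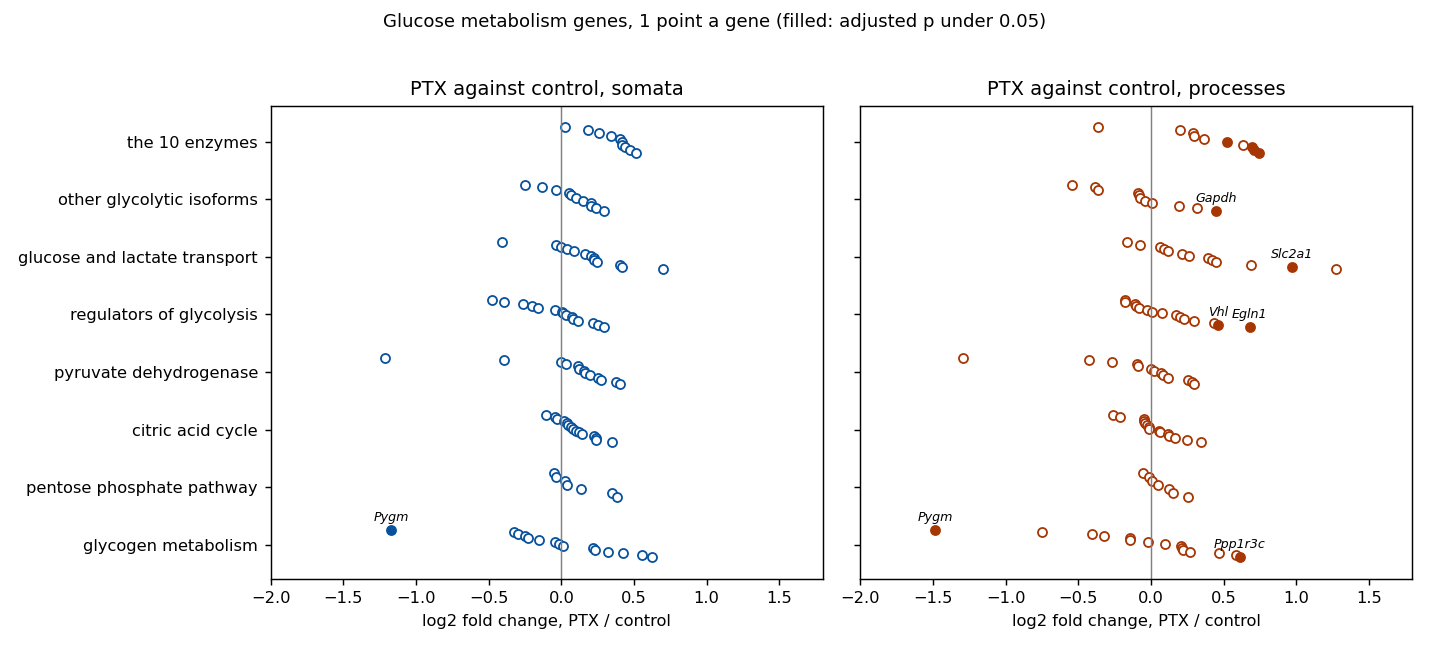
Log2 fold change of PTX against control (x axis) for the 10 enzymes and 7 lists of related genes (y axis), 1 point a gene, in somata (left) and processes (right); filled points have an adjusted p under 0.05 and are named outside the top row. All 10 enzymes are above 0 in somata, from 0.02 to 0.52, and 9 of 10 in processes, while the other lists spread to both sides.

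Between the compartments of control cultures, 30 of the 89 genes (33.7%) were called higher in processes and 21 (23.6%) lower, where 25.8% and 21.9% of all tested genes were, so that the counts below lie in a contrast with many calls. Of the 13 tested transport genes 11 were lower in processes, among them Slc2a3, the neuronal glucose transporter GLUT3 (−1.37, adjusted p = 6.12e-04), and Slc2a1 (−1.36, 1.77e-04), and 2 were higher, the subunits Mpc1 (0.99, 2.17e-04) and Mpc2 (0.56, 0.00539) of the mitochondrial pyruvate carrier. Of the regulators 5 were higher, led by Epas1, the hypoxia-inducible factor HIF-2α (2.13, 8.64e-07), and 6 lower, led by Txnip, an inhibitor of glucose uptake (−0.95, 0.00188), and Arnt, the partner of the hypoxia-inducible factors (−0.82, 0.00175). Of the citric acid cycle 6 were higher, among them Suclg2 (1.46, 1.30e-05), and none lower. Of the genes around pyruvate dehydrogenase 5 were higher, among them Pdk1 (0.68, 0.00192), and 2 lower, Pdp1 (−0.88, 9.31e-04) and Pdhx (−0.64, 0.00324). Of the pentose phosphate pathway 2 were higher, Pgls (0.78, 4.99e-04) and H6pd (0.53, 0.0224). H6pd lost its call under upper quartile scaling (0.33, 0.119) and without any 1 of the 4 control libraries (adjusted p = 0.0684 to 0.0934), and Mpc2 without processes control replicate 1 (0.36, 0.0503). Of glycogen metabolism 6 were higher, among them Ppp1r3c (2.15, 1.36e-06), and 1 lower, Gys1 (−0.69, 0.00213). Of these directions, the positive ones named here other than those of Epas1 and Ppp1r3c turned negative under library size scaling, with which the median of all genes moved to −1.86.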

How the data were processed

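RNA-seq counts of 8 libraries (2 for each of 4 conditions) were analysed, grouped and numbered by the sample labels. Per their methods, the authors trimmed reads with Trimmomatic 0.38, aligned them to Rnor 6.0 with Subread subjunc, assigned them to genes of Ensembl 96 by featureCounts 1.6 and added up the values of each symbol. The submitters' processing notes list STAR in place of subjunc. The deposited values are whole-number counts without normalization for 28909 symbols. Tables of the authors' own PTX comparisons (fold changes, p-values) were not used.

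The rule for the 10 enzymes applies no measured value, but the 10 enzymes and all gene lists were chosen with earlier results of these data known. A gene was tested where 2 or more libraries held over 20 reads (14309 genes). edgeR 4.0.16 (R 4.3.3) gave TMM factors and a quasi-likelihood fit with 1 coefficient per condition over all 8 libraries, where the study used a likelihood ratio test. Benjamini-Hochberg adjustment covered all tested genes, with a threshold of 0.05. SE was computed as the size of the log2 fold change over the root of its F statistic. Log2 CPM used a prior count of 2. Named were the 10 enzymes, tested isoforms of their families, for each related list and contrast up to 2 called rises and 2 falls of largest size (groups not overlapping, average of 5 CPM or more), and the 5 genes most like the mean profile. Of the genes this rule names, 2 are not reported here. Gene lengths were not used here, so levels are not compared between genes. Reads of pseudogenes, frequent for glycolytic genes, or of overlapping genes are of uncertain origin.

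Differences between replicates 2 and 1 correlated across 14309 genes with r of 0.27 to 0.54 in all 6 pairs of conditions. The numbers were therefore taken to pair the libraries. This rests on the data, since the labels give the numbers but not what they mark. The block lowered the common dispersion from 0.0132 to 0.00459. Replicates were not duplicates (chi-square per degree of freedom 9.11 to 21.7). Alternatives were DESeq2 1.42.0, the likelihood ratio test, other scalings, filters and thresholds, a fit of only the 4 libraries compared, the block, and omission of each library in turn. For genes of the related lists, that omission was added after seeing the data, and the other alternatives run for them were upper quartile and library size scaling and the block. The fit was also run on simulated counts with known changes in some genes. These counts held no other difference between compartments and no pairing of replicates, so that run does not cover these features of the data. Depth outside the mitochondrial genome was lower in processes, and 2 libraries per condition limit the precision.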

Additional observations from a re-analysis of the deposited data

How the results depend on the processing

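With 2 libraries per condition, PTX calls of the enzymes rested on the fit. Of the 10, 4 were called in processes, against 8 with the replicate block, 0 with only the 4 libraries compared, 0 at an adjusted p under 0.01 and 0 to 2 when a library was left out. Of all tested genes, 235 were called higher and 300 lower with PTX in processes. With the block these were 730 and 871, and with only the 4 libraries 160 and 138. In somata 0 of the 10 were called, against 7 with the block and 5 with no filter on low counts. DESeq2, library size scaling and only the 4 libraries compared gave 1 each. Of all tested genes, 299 were higher and 214 lower there, and 1031 and 971 with the block. With no filter these were 652 and 489 of 22657 genes, and with DESeq2 289 and 214. Library size scaling gave 351 and 140, and only the 4 libraries 340 and 259. Between compartments 4 of the 10 were called in control cultures, against 7 under upper quartile and 10 under library size scaling. Of all tested genes, 3688 were higher and 3135 lower there, against 2750 and 4704 under upper quartile scaling. Library size scaling gave 191 and 13271. In PTX cultures 3 of the 10 were called, against 5 with the block, 10 under library size scaling and 1 at an adjusted p under 0.01. Of all tested genes, 3680 were higher and 3441 lower there, against 4286 and 4233 with the block. Library size scaling gave 181 and 13318. The block changed no call of the 10 enzymes other than those given with the results and here. Outside the mitochondrial genome the enzymes took 0.462% of counts in somata control, 0.592% in somata PTX, 0.303% in processes control and 0.409% in processes PTX, against 0.344%, 0.458%, 0.0885% and 0.122% of all counts.

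Over the 7 related lists, with the block 11 were called higher and 3 lower with PTX in processes (5 and 1 without it), and 9 higher and 5 lower in somata (0 and 1 without it). Under library size scaling 3 were higher with PTX in somata. Processes against somata, 30 higher and 21 lower in control cultures became 1 and 84 under library size scaling, and 30 higher and 19 lower in PTX cultures became 2 and 84, with 29 lower under upper quartile scaling.

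Library size scaling turned these log2 fold changes of processes against somata negative, in control and PTX cultures in turn: Hk1 −0.96 and −1.37, Pgk1 −1.76 and −1.54, Aldoc −1.17 and −1.23, Ldhb −1.25 and −1.41, Pfkm −1.54 and −1.51, Pgam2 −0.25 and −0.94, Bpgm −0.93 and −1.14, Suclg2 −0.34 and −0.20, Egln1 −0.82 and −0.41, Mpc1 −0.80 and −0.80, Mpc2 −1.26 and −1.03, Pdk1 −1.13 and −1.15, and Pgls −1.03 and −1.04. In control cultures alone this held for H6pd (−1.28) and Pdha1 (−1.27), and in PTX cultures alone for Eno1 (−1.66), Pgam1 (−1.70), Tpi1 (−1.83) and Pdpr (−1.38). It also turned the PTX value of Aldoc in somata to 0.031. Upper quartile scaling turned Eno1 (−0.010), Pgam1 (−0.040) and Tpi1 (−0.17) negative in PTX cultures and Pgk1 (−0.14) in control cultures. With at least 10 reads in every library Pgk1 was −0.0051 in control cultures and Tpi1 −0.062 in PTX cultures, and with no filter Tpi1 was −0.014.

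Leaving out 1 library moved these uncalled values across 0. With PTX in processes, Pfkp ranged from −0.0090 to 0.38, Eno2 from −0.60 to 0.38 and Pfkm from −0.17 to 0.0062. With PTX in somata, Hk1 ranged from −0.026 to 0.056, Aldoc from −0.11 to 0.024, Eno2 from −0.10 to 0.50 and Ldhb from −0.036 to 0.12. Between compartments in control cultures, Pgam1 ranged from −0.22 to 0.050, Pgk1 from −0.14 to 0.24 and Eno3 from −0.39 to 0.056. In PTX cultures, Hk2 ranged from −0.61 to 0.0019, Pgam1 from −0.054 to 0.31, Tpi1 from −0.11 to 0.11 and Eno3 from −0.48 to 0.014. In the interaction, Aldoa ranged from −0.069 to 0.12, Hk2 from −0.39 to 0.22, Ldha from −0.012 to 0.40 and Pkm from −0.020 to 0.22. Where a condition was left with 1 library, that library was assumed to vary like the others. The cause of these changes was not tested.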
